A study of Mus musculus with 6 samples.

Results

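The genes of the TGF-beta receptor and SMAD pathway were examined in natural killer (NK) cells of the thymus of Tcf7 knockout and wild-type mice. The product of Tcf7, TCF-1, is a DNA-binding factor that T cells and innate lymphoid cells need early in their development. The 9 genes were Tgfb1, Tgfbr1, Tgfbr2, Smad2, Smad3, Smad4, Smad7, Ski and Skil, taken by symbol from a table of 26332 genes. All 9 were found, and all 9 passed the filter on low counts. RNA-seq was done on 2 Tcf7 knockout (KO) and 4 wild-type (WT) libraries, each from NK cells of an individual mouse of the C57BL/6 background. KO 1, WT 1 and WT 3 were labelled male, and KO 2, WT 2 and WT 4 were labelled female. The cells were sorted as NK1.1+ NKp46+, without surface CD3, TCRbeta or CD8 and without binding of the CD1d tetramer. Neither the design of the knockout allele nor the age of the mice is given here. Values are CPM (counts scaled to the library total, after TMM scaling, which balances the libraries), given as mean ± SD over 2 KO or 4 WT libraries. A gene was called when the adjusted p of edgeR's quasi-likelihood test, with sex as a term, was under 0.05.

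TGF-beta1 is secreted as a latent precursor that is cut by the protease furin and released from its latency peptide, among others by alpha-v integrins. It binds TGFBR2, which recruits and phosphorylates TGFBR1, and TGFBR1 phosphorylates SMAD2 and SMAD3. These bind SMAD4 and enter the nucleus, where SKI and SKIL (SnoN) hold SMAD target genes in check. SMAD7 is itself a target gene and blocks the receptors. In mouse NK cells the pathway is known to restrain maturation and cytotoxicity and to favour features of tissue-resident type 1 innate lymphoid cells (ILC1), such as the integrins CD49a and CD103.

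No member of the pathway core was called higher or lower in KO in the edgeR fit, with Tgfbr1 near the threshold (adjusted p = 0.0516). Smad7, the inhibitory SMAD gene, had the lowest log2 fold change (-0.74) and Tgfbr1, the signalling receptor gene, the highest (0.63). For the other 7 genes the log2 fold change, fitted with sex as a term, was -0.28 to -0.01. The KO libraries themselves differed: KO 2 had the higher level of all 9 genes, up to 2.02 times that of KO 1 for Tgfbr1. Of 13652 genes tested, 1872 (13.7%) were called, 1110 (8.13%) higher and 762 (5.58%) lower in KO, beside 0 of 9 members. Among only 9 genes, 0 calls does not set the core apart from that share. With scaling by library size only, the split over all genes was 1336 higher and 523 lower. At an unadjusted p under 0.05, 3 of 9 members passed (Tgfbr1, Smad3 and Smad7), beside 29.3% of all tested genes. DESeq2 called these same 3 members (21.6% of all tested genes), and limma voom called Tgfbr1 alone (17.7% of all tested genes). A positive log2 fold change means a higher level in KO, and the median was -0.24 over the members (-0.08 without KO 1 and -0.16 with library-size scaling) and 0.02 over all tested genes.

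Counts of a library summed to between 16418910 and 31155303 and members had 1066 to 14150 counts per library. The targeted gene Tcf7 was lower in the libraries labelled KO, with 268 and 452 CPM, against 811 to 947 CPM in WT (log2 fold change -1.35, SE 0.17, adjusted p = 2.94e-03). NK marker genes were read in every library, with a sum over 14 markers of 15999 and 13821 CPM in KO and of 16504 to 17256 CPM in WT, and 3 of the 14 were called lower. Of 12 alpha-beta T cell markers 6 were called higher, and their sum was 1701 and 2218 CPM in KO, against 386 to 591 CPM in WT. Of 10 B cell markers 6 were called higher. Their sum (600.0 and 440 CPM in KO, 398 to 443 CPM in WT) was mostly Ighm in every library, while their mean log2(CPM + 1) was 4.79 and 3.32 in KO, against 1.86 to 2.48 in WT. Of 7 tested gamma-delta T cell markers 4 were called higher (692 and 503 CPM in KO, 232 to 386 CPM in WT, with Il17a at 0 in every library). Of 11 tested myeloid markers 1 was called higher (sums of 580 and 637 CPM in KO, 387 to 531 CPM in WT). Itgam was the largest part of this sum in every library, with 347 and 280 CPM in KO and 319 to 368 CPM in WT. The mean log2(CPM + 1) of the myeloid list was 3.45 and 4.05 in KO, against 1.22 to 2.96 in WT. Of 6 tested stromal or epithelial markers 4 were called higher (272 and 452 CPM in KO, 111 to 120 CPM in WT, most of it Pecam1). Pecam1 alone had 245 and 402 CPM in KO and 103 to 113 CPM in WT. The mean log2(CPM + 1) of this list was 1.54 and 2.13 in KO, against 0.91 to 1.02 in WT. Platelet markers, of interest because platelets store TGF-beta1, summed to 9.91 and 13.3 CPM in KO and to 6.78 to 8.37 CPM in WT, with 0 of 3 tested markers called. The part of these markers in the values of the members was not tested. In such bulk samples, fewer cells of a type and less RNA per cell cannot be told apart.

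**Figure D1:**
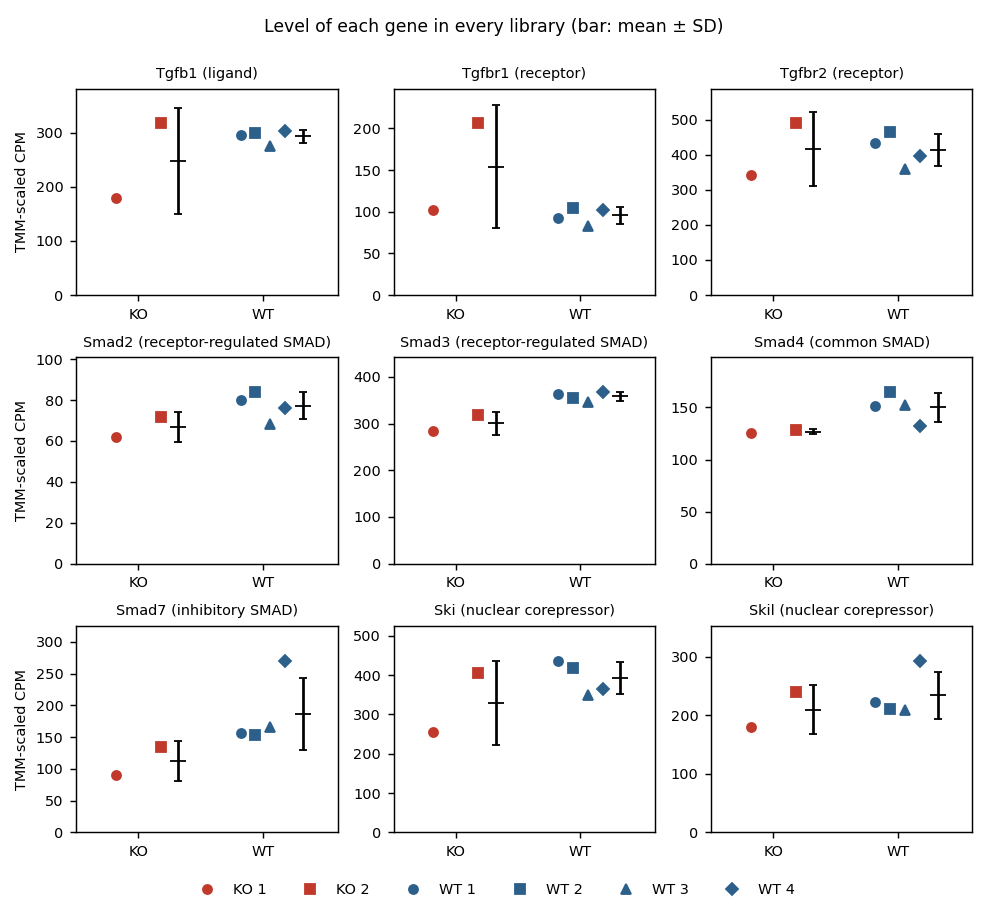
TMM-scaled CPM of each of the 9 genes in every library, with KO left of WT; each symbol is 1 library and the black bar is the group mean ± SD (n = 2 KO, n = 4 WT). In every panel KO 2 lies above KO 1, and both KO points lie below all WT points for Smad3, Smad4 and Smad7 (Smad4 overlapped with scaling by library size only).

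Tgfb1 (Entrez gene 21803, mm10 chromosome 7, 25687002 to 25705077), the ligand gene, had 179 CPM in KO 1 and 318 CPM in KO 2, against 295, 299, 276 and 304 CPM in WT 1 to WT 4. KO 1 was thus below, and KO 2 above, a narrow WT range. The means were 248 ± 98.1 CPM in KO and 294 ± 12.3 CPM in WT. The log2 fold change was -0.28 (SE 0.17, 95% interval -0.67 to 0.10, adjusted p = 0.300). Without KO 2 the gene was called lower (log2 fold change -0.68, adjusted p = 0.0341), and without KO 1 the log2 fold change was 0.07 (adjusted p = 0.805).

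Tgfbr1 (Entrez gene 21812, chromosome 4, 47353222 to 47414926), which encodes the type I receptor kinase that phosphorylates SMAD2 and SMAD3, had 102 CPM in KO 1 and 206 CPM in KO 2. In WT 1 to WT 4 it had 92.8, 105, 82.6 and 102 CPM. KO 2 stood apart from all other libraries, while KO 1 lay at the upper end of the WT range. The means were 154 ± 73.6 CPM in KO and 95.5 ± 9.99 CPM in WT, with a log2 fold change of 0.63 (SE 0.17, 95% interval 0.23 to 1.03, adjusted p = 0.0516). Its size rested on KO 2: the log2 fold change was 0.99 without KO 1 (adjusted p = 9.62e-03) and 0.21 without KO 2 (adjusted p = 0.411). It was called higher under 8 of the 17 alternative settings, with adjusted p from 6.04e-03 to 0.411 over all 17.

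Tgfbr2 (Entrez gene 21813, chromosome 9, 116087695 to 116175363), which encodes the ligand-binding type II receptor kinase, had 341 and 490 CPM in KO 1 and KO 2. In WT 1 to WT 4 it had 433, 466, 360 and 398 CPM, so that the KO values lay on either side of the WT values. The means were 416 ± 105 CPM in KO and 414 ± 46.0 CPM in WT. The log2 fold change, fitted with sex as a term, was -0.01 (SE 0.13, 95% interval -0.33 to 0.30, adjusted p = 0.962), and it lay just above 0 without that term. The ratio of the receptor transcripts within a library does not depend on scaling. Tgfbr1 over Tgfbr2, per length, was 0.253 and 0.355 in KO 1 and KO 2, against 0.181, 0.190, 0.194 and 0.216 in WT 1 to WT 4. Both KO libraries were above all WT libraries in this ratio, which was chosen after its values were seen and was not tested.

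The stretches before the starts of the receptor genes are shown because they are the regulatory sequence nearest to the receptor pair that differed in this ratio, in a comparison of Tcf7 KO and WT cells. They come from RefSeq on GRCm38.p6 (the mm10 assembly) and hold the 250 bases before the start, written 5′ to 3′ on the strand of the gene. Tgfbr1 is at chr4:47352972-47353221 on the plus strand and Tgfbr2 at chr9:116175364-116175613 on the minus strand, and capitals mark the short SMAD site CAGAC or its reverse complement.
Tgfbr1: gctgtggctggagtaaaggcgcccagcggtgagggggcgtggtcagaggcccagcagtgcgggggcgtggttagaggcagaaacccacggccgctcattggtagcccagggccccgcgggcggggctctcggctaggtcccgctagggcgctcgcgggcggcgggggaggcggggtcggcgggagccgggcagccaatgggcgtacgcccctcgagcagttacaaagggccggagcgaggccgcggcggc
Tgfbr2: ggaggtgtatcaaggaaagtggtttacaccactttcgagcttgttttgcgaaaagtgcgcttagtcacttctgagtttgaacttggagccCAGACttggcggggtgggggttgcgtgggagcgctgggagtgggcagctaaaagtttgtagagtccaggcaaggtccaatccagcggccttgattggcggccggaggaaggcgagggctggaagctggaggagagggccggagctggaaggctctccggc

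Windows of 300 bases (250 before to 50 after the start) were found for 5 of the 9 members: Tgfb1, Tgfbr1 (2 windows), Tgfbr2, Smad3 and Ski. The letters CTTTGA, a form of the core of TCF and LEF sites, occurred on either strand in 0 of these 6 windows, and in 16.0% of all 32851 windows. The palindromic SMAD box GTCTAGAC, searched likewise, was in 0 of 6 windows and in 0.213% of all windows. CAGAC was in 2 of 6 windows, those of Tgfbr2 (position -160, counted from -1 for the base before the start) and the second start of Tgfbr1 (position -203), and in 49.6% of all windows. Neither GTCTAGAC nor CAGAC contains the other. Other forms of the TCF and LEF core, such as CTTTGT, were not searched. The printed Tgfbr1 stretch holds acaaag, the reverse complement of CTTTGT, for which no share of all windows was counted. A match is a description of the letters only, and no match says nothing of a factor.

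Both receptor-regulated SMAD genes had lower means in KO, and neither was called. Smad3 (Entrez gene 17127, chromosome 9, 63646766 to 63757994), a DNA-binding signal transducer, had 283 and 317 CPM in KO 1 and KO 2, against 363, 356, 347 and 368 CPM in WT 1 to WT 4. It varied least among WT libraries (coefficient of variation 2.50%), and both KO libraries lay below all WT libraries. The means were 300.4 ± 24.1 CPM in KO and 358 ± 8.98 CPM in WT (log2 fold change -0.26, SE 0.09, 95% interval -0.46 to -0.05, adjusted p = 0.102). Its partner Smad2 (Entrez gene 17126, chromosome 18, 76241090 to 76311748) had 61.8 and 71.8 CPM in KO 1 and KO 2, against 80.0, 84.0, 68.5 and 76.1 CPM in WT 1 to WT 4. KO 2 overlapped the WT range, and the log2 fold change was -0.21 (SE 0.12, 95% interval -0.48 to 0.06, adjusted p = 0.275). Smad2 over Smad3, per length, was 0.121 and 0.126 in KO and 0.110 to 0.131 in WT, so the KO values lay within the WT range. This ratio too was chosen after its values were seen and was not tested.

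Smad4 (Entrez gene 17128, chromosome 18, 73634790 to 73703791), the common partner of the receptor-regulated SMADs, had 125 and 129 CPM in KO 1 and KO 2, against 151, 165, 152 and 132 CPM in WT 1 to WT 4. Both KO values lay below all WT values, by a small margin to WT 4. With scaling by library size only, the KO values (131 and 132 CPM) were above that of WT 4 (129 CPM), so the groups overlapped. The log2 fold change was -0.24 (SE 0.12, 95% interval -0.52 to 0.03, adjusted p = 0.221). GENCODE M21 places a processed pseudogene, which has no row in the counts, on the same stretch. No other gene overlaps any of the other 8 members in that annotation.

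Smad7 (Entrez gene 17131, chromosome 18, 75367365 to 75395935), the inhibitory SMAD gene, had 90.7 and 135 CPM in KO 1 and KO 2. In WT 1 to WT 4 it had 157, 153, 166 and 271 CPM. Both KO libraries lay below all WT libraries, and WT 4 stood above the other WT libraries. The means were 113 ± 31.2 CPM in KO and 186 ± 56.3 CPM in WT, with a log2 fold change of -0.74 (SE 0.21, 95% interval -1.24 to -0.24, adjusted p = 0.0610). For Smad7, WT 3 lay near WT 1 and WT 2. Genes that cell handling can induce, such as Fos and Junb, were high in both WT 3 and WT 4. A list of 10 such genes summed to 447 and 579 CPM in KO 1 and KO 2, against 841, 792, 3456 and 6427 CPM in WT 1 to WT 4. Without WT 4 the log2 fold change of Smad7 was -0.54 (adjusted p = 0.0615), and without WT 3 and WT 4 together it was -0.48 (adjusted p = 0.116). Without WT 2 it was called lower (-0.90, adjusted p = 6.02e-03), as it was under 3 of the 17 alternative settings in all (adjusted p 5.08e-03 to 0.276). Smad7 over Smad3, per length, was 0.367 and 0.487 in KO, against 0.495, 0.493, 0.547 and 0.843 in WT. Smad7 over Smad4 was 0.546 and 0.788 in KO, against 0.781, 0.698, 0.818 and 1.54 in WT, so in this ratio the groups overlapped. Both ratios were chosen after their values were seen, and neither was tested.

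The nuclear corepressor genes Ski and Skil encode related proteins that bind SMADs. Ski (Entrez gene 20481, chromosome 4, 155154075 to 155222535) had 254 and 404 CPM in KO 1 and KO 2, against 437, 418, 350 and 366 CPM in WT 1 to WT 4. KO 1 lay below the WT range and KO 2 within it (log2 fold change -0.28, SE 0.17, 95% interval -0.68 to 0.12, adjusted p = 0.329). Skil (Entrez gene 20482, chromosome 3, 31095058 to 31122923) had 180 and 239 CPM in KO 1 and KO 2, against 223, 211, 208 and 293 CPM in WT 1 to WT 4. Its groups overlapped too (log2 fold change -0.17, SE 0.14, 95% interval -0.51 to 0.17, adjusted p = 0.491), and WT 4 was again the highest WT library. Ski over Skil, per length, was 1.74 and 2.08 in KO and 1.53 to 2.44 in WT, a ratio likewise chosen after its values were seen and not tested.

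**Figure D2:**
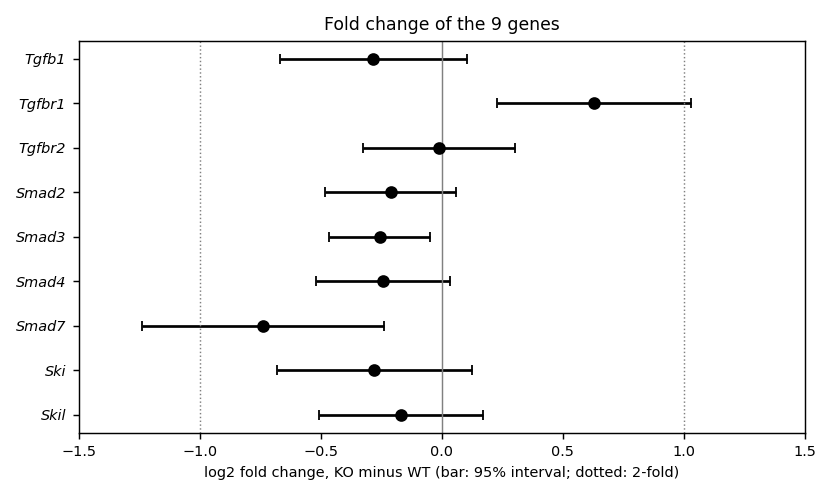
Log2 fold change of each gene, KO minus WT, from the edgeR fit; the bar is the 95% interval and dotted lines mark 2-fold changes. The intervals of Smad3 and Smad7 lie below 0 and that of Tgfbr1 above 0, while the other 6 include 0.

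The intervals bound what these libraries allow. A 2-fold change in either direction lay outside the interval for 7 of the 9 genes, and inside it for Tgfbr1 (upper end 2.04-fold) and Smad7 (lower end 0.424-fold). For the other 7 genes the misses do not show that levels were equal: an interval such as that of Tgfb1 spans 0.629-fold to 1.07-fold. Over the members, 3 of 9 had both KO libraries below all WT libraries (18.8% of all tested genes) and 0 of 9 had both above (20.5% of all tested genes). With scaling by library size only, these counts were 2 and 1, against 14.3% and 25.2% of all tested genes, since Smad4 then overlapped and Tgfbr1 did not. In all, 8 of 9 log2 fold changes were below 0 (48.3% of all tested genes). The exception was Tgfbr1, and the small value of Tgfbr2 was above 0 under 7 of the 17 alternatives, among them library-size scaling (0.07). Without KO 1, 5 of 9 were below 0.

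KO 2 exceeded KO 1 for 9 of 9 members, with each of the 4 scalings, while it did so for 52% of all tested genes with TMM scaling. The ratio of KO 2 to KO 1 was highest for Tgfbr1 (2.02) and Tgfb1 (1.78), followed by Ski (1.59), Smad7 (1.49), Tgfbr2 (1.44) and Skil (1.33). It was lowest for Smad2 (1.16), Smad3 (1.12) and Smad4 (1.03). Each KO library came from a mouse of another sex, so the mouse, the library and the sex cannot be told apart here. Against the WT libraries of the same sex, Tgfb1 was 0.626-fold in KO 1 and 1.05-fold in KO 2, Ski 0.646-fold and 1.03-fold, and Tgfbr1 1.16-fold and 2.00-fold. In a fit with a genotype by sex term, 0 of 9 members were called (0% of all tested genes), with a lowest adjusted p of 0.344 for Tgfb1. At an unadjusted p under 0.05 there were 3 of 9 (10% of all tested genes). DESeq2 called 1, Tgfb1 (adjusted p = 0.0131), beside 130 genes or 1.1% of all those to which it gave an adjusted p.

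**Figure D3:**
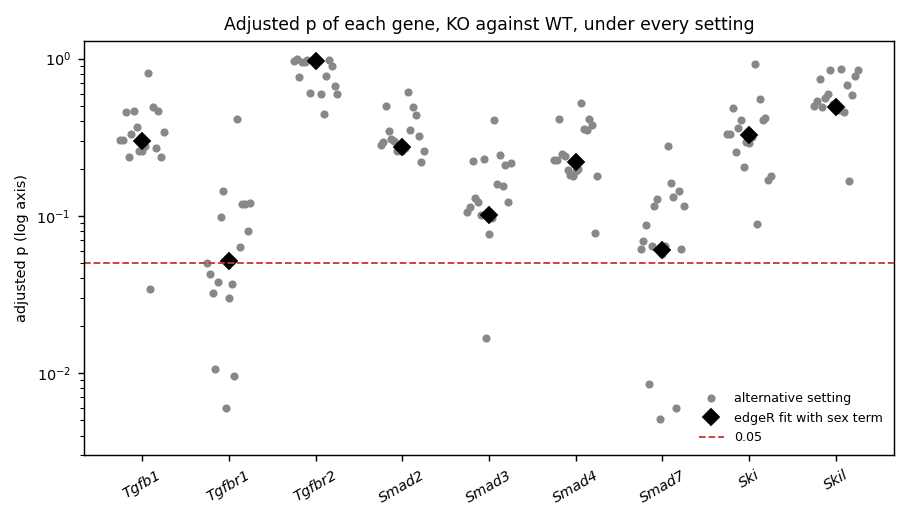
Adjusted p of each gene for KO against WT on a log axis, with the edgeR fit as black diamonds and the 17 alternative settings as grey points; the dashed line marks 0.05. Points of Tgfbr1 lie on either side of the line, and all points of Tgfbr2, Smad2, Smad4, Ski and Skil lie above it.

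Levels of different genes were compared as CPM per kilobase of gene length. In KO the order was Tgfb1 (119), Tgfbr2 (86.8), Ski (60.3), Smad3 (59.0), Smad4 (38.0), Skil (31.2), Tgfbr1 (27.2), Smad7 (25.4) and Smad2 (7.31). In WT it was Tgfb1 (140), Tgfbr2 (86.5), Ski (71.8), Smad3 (70.4), Smad4 (44.9), Smad7 (42.0), Skil (34.8), Tgfbr1 (16.9) and Smad2 (8.44). The first 5 places and the last were thus held by the same genes, and Smad7, Skil and Tgfbr1 changed places. Library values of neighbours in the order overlapped for 5 of 8 pairs in KO and for 4 of 8 in WT. In KO the ranges of Skil, Tgfbr1 and Smad7 overlapped, while in WT those of Skil and Tgfbr1 did not. Tgfb1 stood above 96.1% of all tested genes in KO and above 96.6% in WT, and Smad2 above 42.7% in KO and 47.8% in WT. Smad3, at 59.0 ± 4.74 in KO and 70.4 ± 1.76 in WT, was the more abundant receptor-regulated SMAD transcript in every library.

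**Figure D4:**
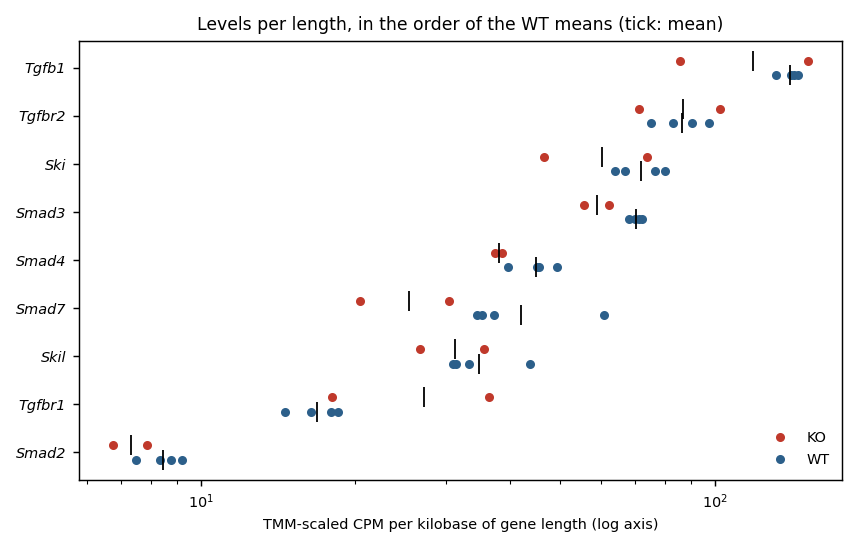
TMM-scaled CPM per kilobase of gene length on a log axis, with KO above WT for each gene; each point is 1 library, the tick is the group mean, and genes run in the order of the WT means. Tgfb1 is highest and Smad2 lowest in both groups, and Tgfbr1 and Smad7 are the genes whose group means lie farthest apart.

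Other genes of the pathway were read from 7 lists, with 109 genes beside the members, of which 90 were tested and 18 (20%) called, 9 higher and 9 lower in KO, beside 13.7% of all tested genes (8.13% higher and 5.58% lower). Without KO 2, 9 of these 18 calls remained, and without WT 3, 11. Among 11 tested genes of ligands and their activation, 2 were called higher and 1 lower (median log2 fold change 0.39). The median was 0.14 without KO 2, 0.20 without WT 2, 0.10 without WT 3 and WT 4 together and 0.07 with the filter of at least 5 CPM. Tgfb3, another TGF-beta ligand gene, fell to 6.65 ± 1.00 CPM in KO, against 23.1 ± 3.11 CPM in WT (log2 fold change -1.80, SE 0.18, adjusted p = 1.19e-03). It had 7.36 and 5.94 CPM in KO 1 and KO 2, against 22.7, 20.7, 27.6 and 21.4 CPM in WT 1 to WT 4, with no overlap, and was called under all 17 alternative settings. Furin, the protease gene, rose to 280 ± 128 CPM in KO, against 145 ± 11.6 CPM in WT (log2 fold change 0.89, adjusted p = 0.0217), with 189 CPM in KO 1 and 370 CPM in KO 2. Itgav, the alpha-v integrin gene, rose to 141 ± 19.6 CPM in KO, against 83.9 ± 12.5 CPM in WT (log2 fold change 0.74, adjusted p = 0.0222). Furin was no longer called without KO 2 (log2 fold change 0.43, adjusted p = 0.157), WT 2 (adjusted p = 0.0532) or WT 3 (adjusted p = 0.0544), and Itgav without KO 1, KO 2 or WT 3 (adjusted p 0.0639, 0.165 and 0.0754).

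Of 10 tested other receptors and co-receptors, 1 was called higher and 1 lower (median 0.64). The sign of this median turned without KO 2 (-0.49), and it was 1.03 without KO 1, 0.12 without WT 4, 0.22 without WT 3 and WT 4 together, 0.99 with no filter and 0.03 with the filter of at least 5 CPM. Acvr2a, an activin receptor gene, rose to 37.1 ± 16.1 CPM in KO, against 12.9 ± 1.67 CPM in WT (log2 fold change 1.48, adjusted p = 6.66e-03), and was not called when KO 2 was left out (log2 fold change 1.01, adjusted p = 0.0617). Bambi, a pseudoreceptor gene that blocks TGF-beta signalling, had 0.12 and 1.41 CPM in KO 1 and KO 2, against 3.36, 3.13, 6.00 and 23.7 CPM in WT 1 to WT 4 (log2 fold change -3.76, adjusted p = 0.0406). Its call was kept by 7 of 17 alternative settings, and the log2 fold change was -2.82 without WT 4 (adjusted p = 0.114). It also lost the call without KO 1 (-3.25, adjusted p = 0.177), KO 2 (adjusted p = 0.130, with only 2 counts in the remaining KO 1, so no fold is given), WT 1 (adjusted p = 0.0827) or WT 3 (adjusted p = 0.0886), and by limma voom (adjusted p = 0.439).

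Other SMADs and nuclear partners held no called gene among 11 tested (median -0.16, and -0.17 to -0.07 under the alternatives), and 0 of the 11 had an unadjusted p under 0.05. Ncor1, a corepressor gene and the most abundant of them per length, had 544 ± 3.18 CPM in KO and 546 ± 49.6 CPM in WT. Of 17 regulators of turnover and trafficking, 1 was called lower (median -0.04, and -0.13 to 0.04 under the alternatives): the ubiquitin ligase gene Wwp1, with 39.6 ± 5.62 CPM in KO and 60.7 ± 10.3 CPM in WT (log2 fold change -0.61, adjusted p = 0.0187). Of 11 genes of the SMAD-independent branch, 2 were called lower (median -0.14, and -0.27 to -0.02 under the alternatives). Traf6, a ubiquitin ligase gene of the TAK1 branch, had 78.9 ± 5.29 CPM in KO and 115 ± 13.8 CPM in WT (log2 fold change -0.55, adjusted p = 0.0296). Rhoa, a small GTPase gene, had 527 ± 11.2 CPM in KO and 680.2 ± 43.7 CPM in WT (log2 fold change -0.37, adjusted p = 0.0318). Each of Wwp1, Traf6 and Rhoa was no longer called without KO 1 (adjusted p 0.114, 0.127 and 0.104), KO 2 (0.0792, 0.133 and 0.144), WT 1 (0.0628, 0.0880 and 0.105) or WT 3 (0.0592, 0.0620 and 0.0690), and Rhoa also without WT 2 (0.0630).

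The response lists hold genes taken as changed by TGF-beta, and both were drawn up with earlier results of these data known. Whether TGF-beta changes each of these genes in thymic NK cells was not tested. Of 19 tested genes taken as induced by TGF-beta, 5 were called higher and 1 lower, beside 8.13% higher and 5.58% lower of all tested genes. Their median log2 fold change was 1.06, and 14 of the 19 lay above 0, while 48.3% of all tested genes lay below 0. The median was 0.69 without KO 2 and 0.29 with the filter of at least 5 CPM, and 4 to 9 genes were called higher under the alternatives. Entpd1, which encodes the ectoenzyme CD39, had 219 and 162 CPM in KO 1 and KO 2, against 28.7, 46.0, 35.7 and 31.0 CPM in WT 1 to WT 4 (log2 fold change 2.43, adjusted p = 6.69e-04). Itgae, the gene of the integrin chain CD103, had 417 and 1204 CPM in KO 1 and KO 2, against 101, 177, 147 and 132 CPM in WT 1 to WT 4 (log2 fold change 2.40, adjusted p = 2.07e-03). Nt5e, which encodes the ectoenzyme CD73, had 151 and 159 CPM in KO 1 and KO 2, against 56.3, 67.0, 48.7 and 37.6 CPM in WT 1 to WT 4 (1.56, adjusted p = 3.70e-03). No KO library overlapped the WT range for these 3 genes. Itga1, the gene of the integrin chain CD49a, rose to 275 ± 26.9 CPM in KO, against 107 ± 18.6 CPM in WT (1.36, adjusted p = 2.38e-03). The remaining calls, named after their values were seen, were Tnfsf10, the TRAIL death ligand gene, which rose (1.13, adjusted p = 0.0157), and the tetraspanin gene Cd9, which fell (-0.80, adjusted p = 2.80e-03). Pmepa1 and Ldlrad4, direct targets that dampen the pathway, were not called (0.26 and 0.25, adjusted p = 0.639 and 0.634). The T cell marker sums given above were higher in the same KO libraries, and several genes of this list, Itgae among them, are also expressed by T cells. Their part was not tested.

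Among 17 windows of 13 named list genes, CTTTGA was in 1, that of Itga1, beside 16.0% of all windows. CAGAC was in 9 of these 17 windows, beside 49.6% of all windows. The stretch of 250 bases before the start of Itga1 is shown because it holds CTTTGA. It lies at chr13:115101965-115102214 on the minus strand of GRCm38.p6 and is written 5′ to 3′ on the strand of the gene. Capitals mark GTCTG, the reverse complement of CAGAC (position -180), and CTTTGA (position -113).
Itga1: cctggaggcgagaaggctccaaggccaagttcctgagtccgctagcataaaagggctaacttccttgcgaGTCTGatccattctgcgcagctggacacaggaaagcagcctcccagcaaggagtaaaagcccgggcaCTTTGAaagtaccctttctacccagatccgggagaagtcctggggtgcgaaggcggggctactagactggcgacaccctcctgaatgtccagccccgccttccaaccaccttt

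The list of genes taken as repressed by TGF-beta was mixed (median -0.25, and -0.10 without KO 2). Of 13 tested, 3 were called lower and 1 higher, beside 5.58% lower and 8.13% higher of all tested genes. Eomes, which encodes a T-box factor that NK cells need, had 295 and 140 CPM in KO 1 and KO 2, against 930, 928, 913 and 800.4 CPM in WT 1 to WT 4 (log2 fold change -2.11, adjusted p = 1.59e-03). S1pr5, a receptor gene of NK egress, fell to 94.2 ± 17.3 CPM in KO, against 207 ± 24.8 CPM in WT (-1.15, adjusted p = 2.36e-03). Klf2, a transcription factor gene of lymphocyte trafficking, fell to 364 ± 27.5 CPM in KO, against 563 ± 44.6 CPM in WT (-0.63, adjusted p = 9.10e-03), and was not called when KO 2 was left out (adjusted p = 0.0732). Gzmb, the granzyme B gene, moved the other way, with 1783 ± 339 CPM in KO and 500.4 ± 44.4 CPM in WT (1.83, adjusted p = 3.40e-04). Prf1 and Ncr1, the perforin gene and the gene of NKp46, were not called (adjusted p 0.0525 and 0.384).

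**Figure D5:**
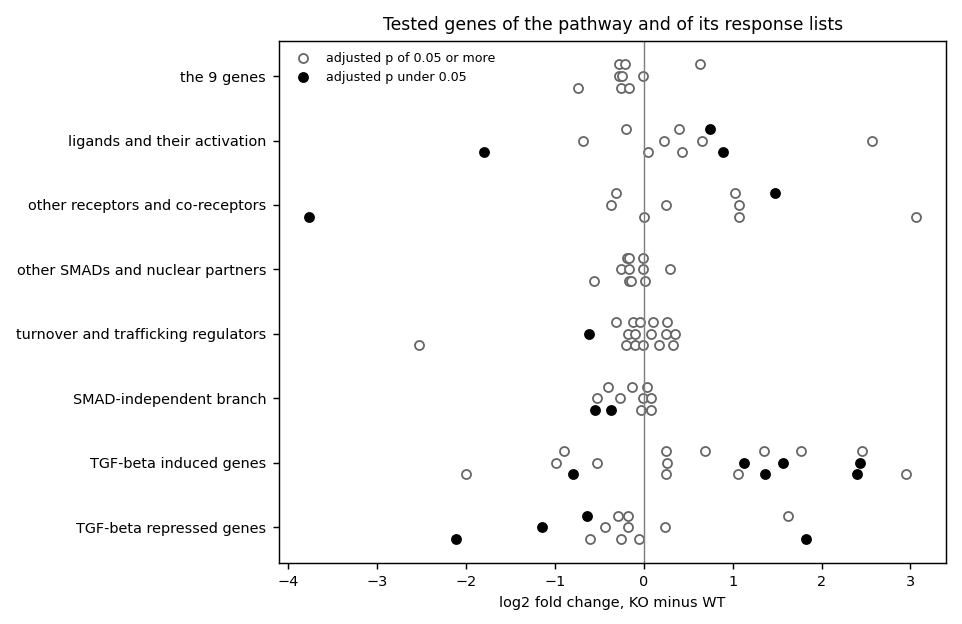
Log2 fold change, KO minus WT, of every tested gene in the 9-gene core and the 7 lists; filled points have an adjusted p under 0.05 and open points do not, and heights within a row only separate points. The core has 0 filled points of 9 and the list of TGF-beta induced genes 6 of 19, beside 13.7% called among all tested genes. That list was drawn up with earlier results of these data known.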

How the data were processed

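Per the labels' protocols, RNA of sorted thymic NK cells was amplified with the SMART-Seq v4 kit for low input and sequenced from both ends of each fragment. The deposited values are raw counts per Entrez gene, made by the authors with featureCounts on mm10, per the submitters' processing notes. The aligner is not given in the sources used here, nor are versions. The kit does not mark strand, so reads of a gene and of an antisense partner cannot be separated. Amplified reads without molecular identifiers are not independent molecules. Gene length is the authors' value in the deposited table. Single-sample files held the same counts (6 of 6), and 0 columns belonged to other samples. Of 26332 gene IDs, 25275 had a symbol in RefSeq's GRCm38.p6 table.

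Counts were fitted over all 6 libraries with edgeR 4.0.16 (R 4.3.3): TMM, filterByExpr, glmQLFit and glmQLFTest, genotype plus sex as labelled, Benjamini-Hochberg adjustment over 13652 genes, 3 residual degrees of freedom. SE is the fold change divided by the root of F, and 95% intervals use the test's degrees of freedom. Adjusted p are from this fit unless a setting is named. The 17 alternatives included DESeq2 1.42.0, limma 3.58.1 voom, other scalings and filters, and each library left out. A lone KO library was then assumed to vary like WT. The function was tested on simulated counts. The members, lists and alternatives were chosen with earlier results of these data known. Named are all members, up to 4 called genes per list with the largest change, or else the most abundant per length. Genes nearest in pattern were to be named for called members only, of which there were 0. Some genes stand in more than 1 list.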

Additional observations from a re-analysis of the deposited data

Results flagged for a closer look

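In 3 cases 1 WT library lay far from the other 3 (gap to the nearest library over the whole range above Dixon's 95% critical value for 4 samples, which chance passes in about 1 in 20 groups). The genes checked were the 9 members, Tcf7 and the 17 list genes picked by size of change or abundance. WT 4 was the highest WT library for Smad7, with 271 CPM, and for Bambi, with 23.7 CPM. It was the lowest WT library for Eomes, with 800.4 CPM. WT 4 also had the highest sum of handling-response genes (6427 CPM, against 792 to 3456 CPM in the other WT libraries), and the part of this in the 3 values was not tested. No member or named gene was called for a genotype by sex difference in the edgeR fit.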

How the results depend on the processing

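The count of called members was 0 of 9 in the edgeR fit. It was 1 with upper-quartile scaling, library-size scaling, the filter of at least 5 CPM in 2 libraries, limma voom and the robust option (Tgfbr1 each time), 2 with no filter (Tgfbr1 and Smad7) and 3 with DESeq2 (Tgfbr1, Smad3 and Smad7). With each library left out in turn it was 0 to 1: Tgfbr1 without KO 1, Tgfb1 without KO 2 and Smad7 without WT 2. Over all genes, 1872 were called, 2955 with DESeq2, and 934 to 1908 with a library left out. Pathway list genes called numbered 18, and 9 to 19 with a library left out. For the genotype by sex term, 0 members were called in the edgeR fit and 1 with DESeq2. The causes were not tested.

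The replicate numbers 1 and 2 are shared between KO and WT and go with sex on the labels. With the number as a replicate block, 0 members and 1341 genes were called, and 17 pathway genes. Deviations from the group means correlated at 0.13 (KO 1 with WT 1) and -0.05 (KO 2 with WT 2) across genes. The deviations of 2 KO libraries are mirror images. The second value is therefore that of KO 1 with WT 2 (0.05) with its sign turned, and not a separate check. With 2 pairs, and sex shared within each, the numbers were not taken as a pairing. Among the named genes and members, no called fold change changed direction under any alternative that was run. For the uncalled members Tgfb1, Tgfbr2 and Ski the sign differed without KO 1 (0.07, 0.17 and 0.04), and for Tgfbr2 also under 6 other alternatives. Tgfbr2, Smad2, Smad4, Ski and Skil were not called under any of the 17 alternatives. Beside the libraries left out one at a time, calls were lost for Wwp1 without the sex term (adjusted p = 0.0545), for Rhoa with library-size scaling (0.0620), and for Traf6 and Rhoa without WT 3 and WT 4 together (0.0581 and 0.0601) and with the block (0.0618 and 0.0677). Bambi also lost its call without the sex term (0.0898), with limma voom (0.439), with the robust option (0.0861), with the block (0.104) and without WT 3 and WT 4 together (0.178). Members had at least 1066 counts in a library, which bears on counting error only.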
